A study of Mus musculus with 2 samples.

Results

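The genes described here are 7 transcription factor genes of retinal ganglion cells: Pou4f1, Pou4f2, Isl1, Isl2, Ebf1, Ebf3 and Irx2. They were taken as a list by name, with no threshold on their values but with earlier results of these data known. All 7 were present among the 32285 genes of both matrices. The study dissociated retinas of mouse embryos at E13.5 (day of embryonic development), sorted the cells for TdTomato and read their RNA as single cells. The mice carried a-Cre and a Td reporter, and the labels call the tissue peripheral retina that contains the ciliary margin. As background, a-Cre is driven by a Pax6 enhancer that is active in the peripheral retina, so ganglion cells of the central retina are largely outside the sample. The pigmented group is 1 library from 3 pooled embryos, with the strain given as Tyrc2j. The albino group is 1 library from 3 pooled embryos, with the strain given as Swizz ICR. Both groups carried the Cre and the reporter. The label Tyrc2j is also the name of a tyrosinase allele of albino mice, and how it fits the title of the pigmented sample is not stated in the labels.

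Since each group is 1 library, no replicates exist and no test between groups was run. Every interval below is an exact 95% interval that covers counting error only, and a difference between cell classes is read as one only where both libraries show it beyond that interval. After filters 5711 pigmented cells remained with a median of 10319 UMIs (unique molecular identifiers, each standing for 1 captured RNA molecule), and 3474 albino cells with a median of 11194. Only 8 cell barcodes were shared by the libraries. The pools also differed in sex: cells with Xist RNA and no Y-linked RNA made up 29.3% of the pigmented and 96.1% of the albino library. Strain, pool, sex and library therefore cannot be told apart from pigmentation.

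Retinal ganglion cells are the neurons that send the eye's output along the optic nerve, and they are the earliest neurons born in the retina. Progenitors that leave the cell cycle pass through a state with Atoh7, a basic helix-loop-helix factor required for most ganglion cells. Pou4f2 (also called Brn3b), a POU homeodomain factor, and Isl1, a LIM homeodomain factor, are known to act together after Atoh7 to start the ganglion cell program. Pou4f1 (Brn3a) is a paralogue of Pou4f2 that appears later and shapes ganglion cell subtypes. Isl2 is a paralogue of Isl1 found in a subset of ganglion cells, where it is known for its part in the choice of projection to the same or the opposite side of the brain. Ebf1 and Ebf3 are helix-loop-helix factors of the Ebf family, which are used in many differentiating neurons and in mesenchyme. Irx2 is an Iroquois homeodomain factor expressed in early ganglion cells.

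The region before the start of transcription is shown for the 3 genes whose levels peaked together (Pou4f2, Isl1 and Irx2) and for Pou4f1, the paralogue that peaked later. The sequences are the 250 bases upstream of the start in RefSeq, build GRCm38.p6, read 5′ to 3′ on the strand of the gene. Capitals mark E-boxes, the CANNTG letters that basic helix-loop-helix factors such as Atoh7 can bind. The windows are chr8:78436648-78436897 (minus strand) for Pou4f2, chr13:116309689-116309938 (minus strand) for Isl1, chr13:72628570-72628819 (plus strand) for Irx2 and chr14:104468000-104468249 (minus strand) for Pou4f1.
Pou4f2: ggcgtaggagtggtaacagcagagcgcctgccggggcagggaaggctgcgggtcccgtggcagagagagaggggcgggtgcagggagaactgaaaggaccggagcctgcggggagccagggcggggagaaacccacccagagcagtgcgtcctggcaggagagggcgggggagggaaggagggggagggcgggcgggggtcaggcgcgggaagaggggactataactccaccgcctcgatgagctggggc
Isl1: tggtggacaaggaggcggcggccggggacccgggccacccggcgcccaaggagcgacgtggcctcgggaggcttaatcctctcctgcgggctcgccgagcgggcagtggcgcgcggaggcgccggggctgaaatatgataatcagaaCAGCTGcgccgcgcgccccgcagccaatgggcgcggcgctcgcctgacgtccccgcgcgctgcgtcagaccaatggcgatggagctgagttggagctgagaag
Irx2: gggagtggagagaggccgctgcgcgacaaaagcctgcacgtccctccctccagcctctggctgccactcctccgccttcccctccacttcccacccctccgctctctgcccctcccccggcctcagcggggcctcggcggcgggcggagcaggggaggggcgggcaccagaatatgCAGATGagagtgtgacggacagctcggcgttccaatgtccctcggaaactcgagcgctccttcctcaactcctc
Pou4f1: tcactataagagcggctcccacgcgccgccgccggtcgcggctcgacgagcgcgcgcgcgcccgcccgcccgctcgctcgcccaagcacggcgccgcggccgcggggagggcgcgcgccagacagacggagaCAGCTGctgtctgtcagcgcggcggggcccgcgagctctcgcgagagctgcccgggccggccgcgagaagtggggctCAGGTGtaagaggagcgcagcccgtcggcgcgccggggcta
Isl1 and Pou4f1 each held the E-box CAGCTG, starting 103 and 118 bases before the start of transcription. Pou4f1 had another E-box, CAGGTG, 41 bases before the start, and Irx2 had CAGATG 74 bases before it. No E-box lay in the Pou4f2 window, which says only that these letters were not there. All 7 genes matched an entry, Ebf1 with 2, which gives 8 promoters of 300 bases (250 before the start and 50 after it). An E-box was present in 4 of the 8, beside 72.3% of 32817 mouse promoters of this length. CAGCTG, a subset of those E-boxes, was present in 2 of the 8, beside 16.3%. CCCNNGGG, the core of the motif bound by Ebf factors, was present in the promoters of Isl2 and Ebf3, 2 of the 8, beside 13.7%. Searches covered both strands, and these matches are descriptions of sequence, not of binding.

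All 7 genes are protein coding, and their coordinates are given here from GENCODE in build GRCm38, the assembly also called mm10. Pou4f1 lies at chr14:104461676-104467999, Pou4f2 at chr8:78433010-78436645, Isl1 at chr13:116298281-116309689 and Ebf3 at chr7:137193673-137314445, all on the minus strand. Isl2 lies at chr9:55538672-55546180, Ebf1 at chr11:44617317-45008091 and Irx2 at chr13:72628820-72634198, all on the plus strand. Isl1 and Irx2 thus share chromosome 13 but lie far apart on it. Ebf3 shares 355 exonic bases with the antisense gene Gm45278, which had 3 and 0 UMIs in the pigmented and albino library beside 2747 and 3108 for Ebf3. Other antisense genes that overlap Isl2, Ebf1 and Ebf3 share no exonic base with them.

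Cells were clustered without the 7 genes and without a list of 30 other ganglion cell network genes, and clusters were named from other markers. The 4 classes compared here as steps toward ganglion cells are as follows. Their order was taken from background and from the maturation genes, and no lineage was traced. Neurogenic cells (377 pigmented, 241 albino) carry Neurog2, Dll1 and Hes6. The leading genes of their larger cluster also include Olig2 and Otx2, so they are not read as directed to ganglion cells alone. A group led by Gal and Insm2 (697 and 374 cells) also scored highest for the neurogenic markers, but was kept apart from the neurogenic cells and is called by those leading genes. Newborn (346 and 400) and maturing (200 and 273) ganglion cells are ganglion cell-like by markers, with names rebuilt here rather than given by the authors. Each had 11 of 12 ganglion cell markers in at least 10% of their cells in both libraries. The marker at 0 UMIs in both was Thy1. Their split into newborn and maturing follows the summed level of 10 axon and maturation genes such as Nefl, Sncg and Gap43. The summed ganglion cell markers reached 16600 and 18220 CPM in newborn cells and 26420 and 26530 CPM in maturing cells, where CPM is UMIs of a gene per 1000000 UMIs of the same cells. Values below are given for the pigmented library and then for the albino library.

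**Figure D1:**
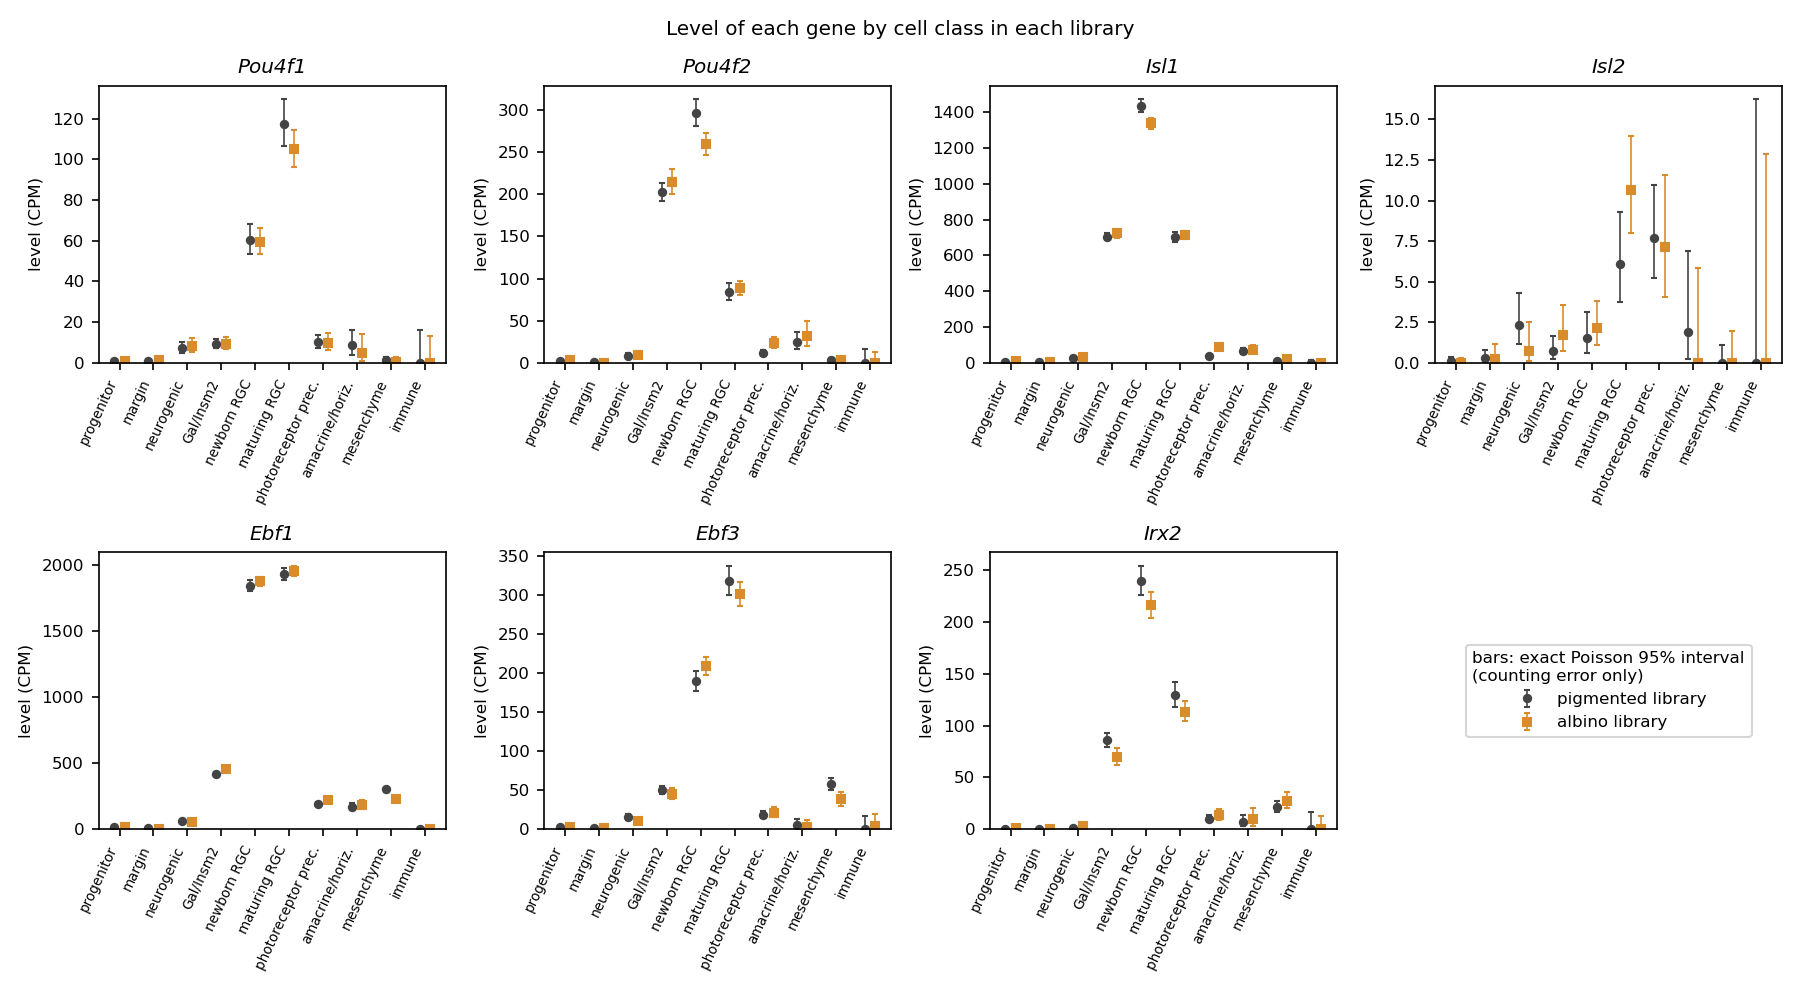
Level of each gene (CPM, vertical axis from 0) in cell classes (horizontal axis) in the pigmented and the albino library; points are summed CPM and bars are exact Poisson 95% intervals for counting error. Pou4f2, Isl1 and Irx2 are highest in newborn ganglion cells, Pou4f1 and Ebf3 in maturing ones, in both libraries.

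Pou4f2 and Isl1, the factors that start the ganglion cell program, appeared in the Gal and Insm2 cells and were highest in newborn ganglion cells. Pou4f2 was at 8.45 CPM (95% interval 5.92 to 11.7) in pigmented neurogenic cells and 9.69 (6.44 to 14.0) in albino ones. It reached 203 CPM (193 to 214) and 215 (201 to 229.8) in Gal and Insm2 cells and 297 (281 to 313) and 259.7 (246 to 274) in newborn ganglion cells. In maturing ganglion cells it was at 84.0 CPM (74.6 to 94.3) and 88.5 (80.3 to 97.3). Pou4f2 was thus lower in maturing ganglion cells than in the Gal and Insm2 cells in both libraries, and the intervals of the 4 steps did not overlap in either.

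Isl1 likewise peaked in newborn ganglion cells. It went from 26.1 and 29.1 CPM in neurogenic cells to 703 and 723 in Gal and Insm2 cells and 1438 and 1339 in newborn ganglion cells. In maturing ganglion cells Isl1 was at 702 and 714 CPM, which did not differ beyond counting error from the Gal and Insm2 cells (ratio 1.001, 0.954 to 1.05, and 1.012, 0.964 to 1.06). Irx2 was nearly absent from neurogenic cells, at 1.17 and 2.77 CPM from 5 and 8 UMIs. It reached 85.9 and 69.7 CPM in Gal and Insm2 cells and peaked at 239.8 and 216 in newborn ganglion cells. Maturing cells held 129 and 114 CPM of Irx2, more than the Gal and Insm2 cells and less than the newborn cells in both libraries.

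Ebf1 was high in both ganglion cell classes and Ebf3 and Pou4f1 were highest in the maturing one. Ebf1 was already at 63.4 and 55.4 CPM in neurogenic cells and at 418 and 453 in Gal and Insm2 cells. It then stood at 1841 and 1874 CPM in newborn and 1929 and 1954 in maturing ganglion cells, a ratio of 1.048 (1.014 to 1.082) and 1.043 (1.014 to 1.072). Ebf1 therefore differed little between the ganglion cell classes, although the counting interval leaves out 1. Ebf3 went from 15.02 and 11.1 CPM in neurogenic cells through 49.5 and 45.2 and 189.8 and 209 to 318 and 301 CPM in maturing ganglion cells. Pou4f1 was at 7.28 and 8.30 CPM in neurogenic cells and 9.16 and 9.33 in Gal and Insm2 cells, which did not differ beyond counting error (ratio 1.26, 0.808 to 2, and 1.12, 0.657 to 1.96). It was first clearly above these levels in newborn ganglion cells, at 60.6 and 59.5 CPM, and reached 118 and 105 CPM in maturing ones. Pou4f1 thus rose above its neurogenic level a step later than its paralogue Pou4f2. Against progenitors it was already higher in neurogenic cells, with ratios of 12.05 (6.2 to 24.5) and 11.4 (5.3 to 26.7), from 31 and 24 UMIs in neurogenic cells.

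Isl2 was sparse everywhere, with 82 UMIs in the whole pigmented and 97 in the whole albino library. It had 21 and 52 UMIs in maturing ganglion cells (6.08 and 10.7 CPM), 7 and 12 in newborn ganglion cells (1.53 and 2.17 CPM) and 5 and 7 in Gal and Insm2 cells (0.716 and 1.72 CPM). Neurogenic cells had 10 and 2 UMIs (2.35 and 0.692 CPM), and did not differ from newborn cells beyond counting error in either library. Surface ectoderm had 0 and 6 UMIs. Besides maturing ganglion cells, the class with the highest level of Isl2 was the photoreceptor precursors, at 7.71 CPM (5.24 to 10.9) and 7.11 (4.06 to 11.6). Maturing ganglion cells and photoreceptor precursors did not differ in Isl2 beyond counting error in either library, and the higher of them differed between the libraries.

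For changes of at least 2-fold, the steps between classes were compared with all genes counted the same way. The list was chosen with earlier results of these data known, so its counts beside all genes are a description and no independent support. The share of all genes beyond counting error was not counted for these steps. That rule is passed more easily by genes with many UMIs, so counts under it are not read as particular to the list. From neurogenic to Gal and Insm2 cells, 5 of the 7 genes (Pou4f2, Isl1, Irx2, Ebf1, Ebf3) were higher beyond counting error in both libraries. The ratios were 24.0 (17.3 to 34.5) and 22.2 (15.3 to 33.6) for Pou4f2, and 26.99 (22.4 to 32.9) and 24.9 (20.03 to 31.3) for Isl1. Irx2 had the widest interval, 73.2 (31.2 to 226) and 25.2 (12.6 to 58.9), because neurogenic cells held few of its UMIs. The same 5 genes were at least 2-fold higher in both libraries, of 6 with at least 20 UMIs over the compared cells of each library. Of all 10494 genes with that many UMIs, 5.66% were at least 2-fold higher and 7.55% at least 2-fold lower in both. Isl2 was not beyond counting error in the same direction in both libraries.

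From Gal and Insm2 cells to newborn ganglion cells, 6 of the 7 were higher beyond counting error in both libraries, all but Isl2. The ratio was largest for Pou4f1, 6.61 (5.02 to 8.82) and 6.37 (4.55 to 9.17). It was 4.41 and 4.13 for Ebf1 and 3.83 and 4.62 for Ebf3, whose order differed between the libraries, and 2.79 and 3.10 for Irx2. Isl1 was 2.05 and 1.85 times as high and Pou4f2 only 1.46 (1.36 to 1.58) and 1.21 (1.11 to 1.32). At least 2-fold higher in both libraries were 4 of 6 (Pou4f1, Ebf1, Ebf3 and Irx2), beside 6.72% of all 10954 genes higher and 6.97% lower. Of the 6 genes higher in both libraries, Isl1 and Pou4f2 thus had the smallest ratios at this step.

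From newborn to maturing ganglion cells the list split. Pou4f1, Isl2, Ebf1 and Ebf3 were higher and Pou4f2, Isl1 and Irx2 lower, each beyond counting error in both libraries. The ratio was 0.283 (0.248 to 0.321) and 0.341 (0.305 to 0.380) for Pou4f2, 0.488 and 0.534 for Isl1, and 0.539 and 0.525 for Irx2. On the other side it was 1.94 (1.66 to 2.27) and 1.77 (1.54 to 2.04) for Pou4f1 and 1.68 and 1.44 for Ebf3. Isl2 had ratios of 3.98 (1.63 to 11.1) and 4.92 (2.59 to 10.1) from few UMIs. In the pigmented cells with Xist and no Y-linked RNA alone the Isl2 ratio was 1.24 (0.0896 to 17.1). At least 2-fold apart in both libraries were 1 gene higher (Isl2) and 1 lower (Pou4f2) of 7, beside 3.96% of all 10528 genes higher and 2.04% lower. These class steps share cells: the newborn cells stand in both of the last comparisons.

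**Figure D2:**
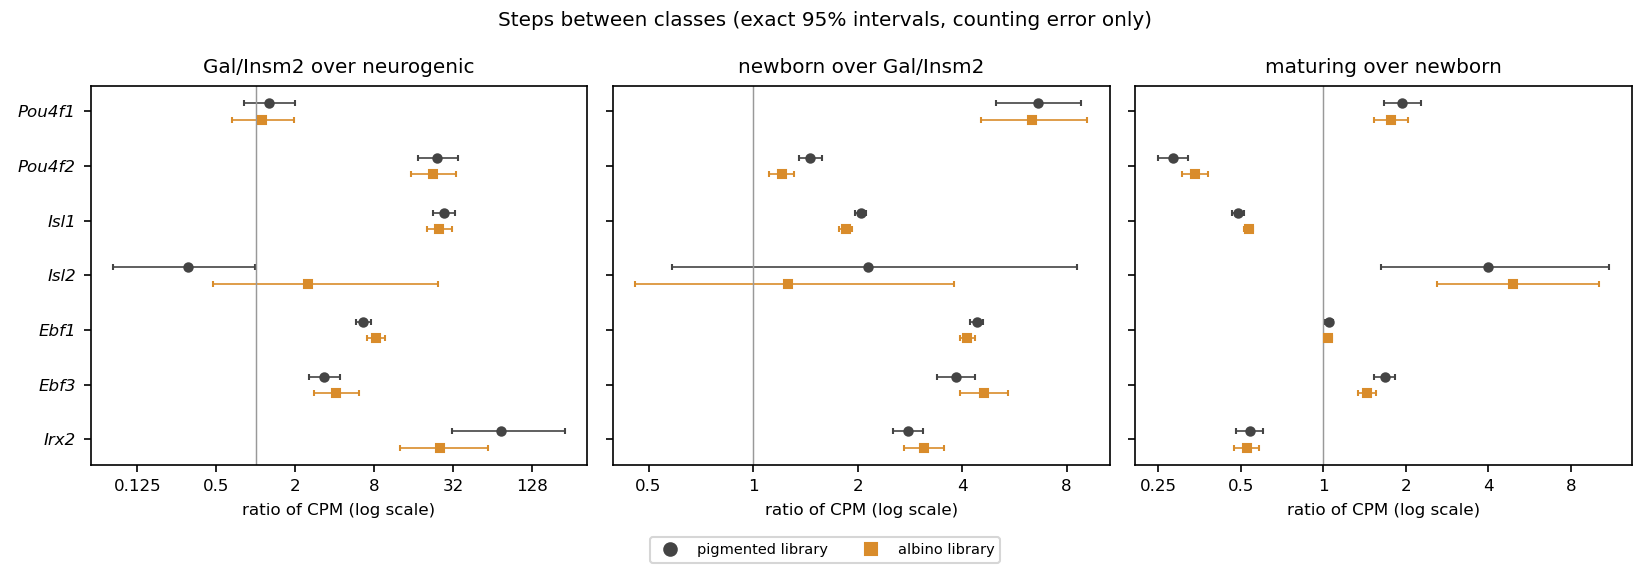
Ratio of CPM between successive classes for the 7 genes (rows), on a log scale, with exact 95% intervals for counting error, for the pigmented and the albino library. At the last step Pou4f2, Isl1 and Irx2 lie below 1 and Pou4f1, Isl2 and Ebf3 above it in both libraries.

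The same order appeared when cells of the 4 classes were ranked by the summed level of the 10 maturation genes instead of by class. These genes also helped to name the classes, so this is another view of the same cells and no independent support. Isl1 went from 49.0 and 76.6 CPM in cells under 500 CPM of the list to 1472 and 1379 CPM at 4000 to 8000 CPM and 774 and 793 CPM above 16000. Pou4f2 peaked in the same bin, at 388 and 349 CPM, and stood at 85.4 and 93.1 above 16000. Irx2 also peaked there, at 238 and 217 CPM. All 3 therefore had passed their peak while Pou4f1, Ebf3 and Isl2 had not. Pou4f1 was at 29.2 and 39.9 CPM in the 4000 to 8000 bin and 122 and 104 above 16000, its highest bin. Ebf1 was near its plateau from 8000 CPM on (1929 and 1930, then 1939 and 1978 CPM). Atoh7 fell through the bins without a peak, from 8079 and 8136 CPM in the lowest to 135 and 154 CPM in the highest. The median UMIs per cell also differed along the list, from 10010 and 10729 in the lowest bin to 16894 and 16181 in the highest. The part of depth in these levels was not tested.

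**Figure D3:**
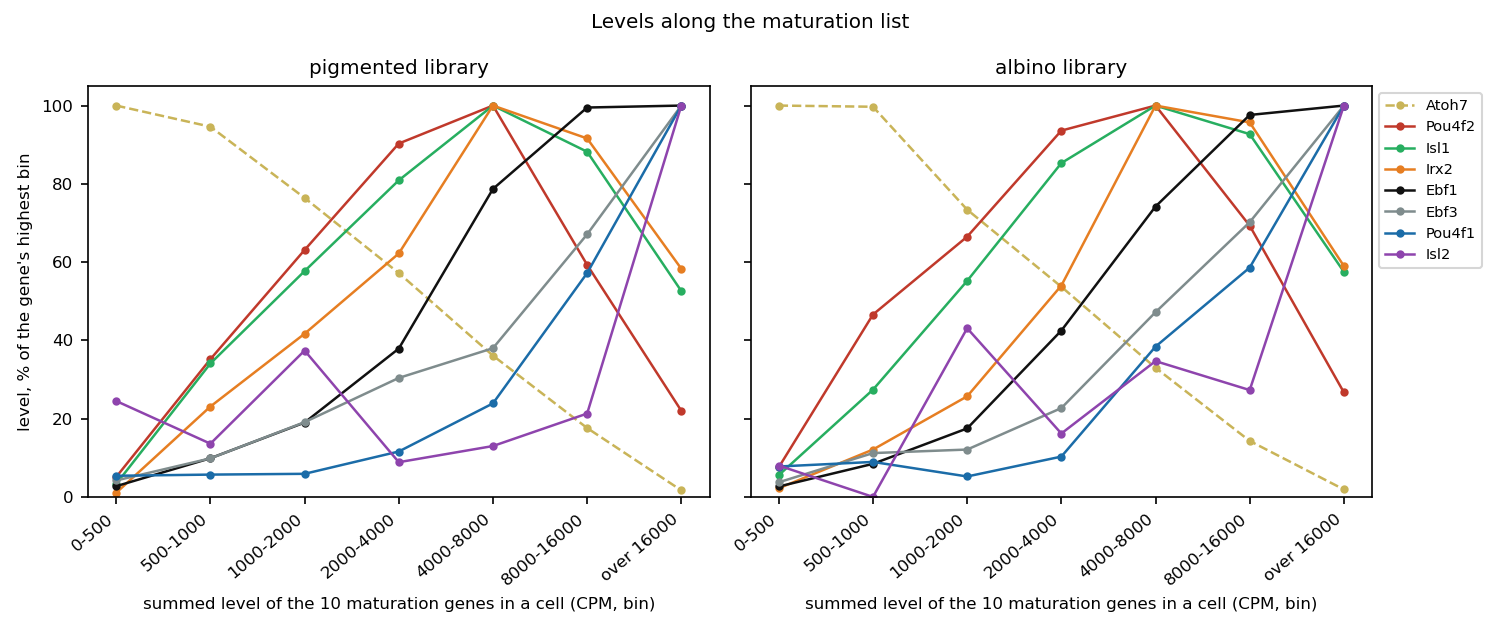
Level of each gene as a percentage of its highest bin (vertical axis) in cells binned by the summed CPM of 10 maturation genes (horizontal axis), for each library, with Atoh7 dashed. Isl1, Pou4f2 and Irx2 peak at 4000 to 8000 CPM of the list, and Pou4f1, Ebf3 and Isl2 are highest above 16000.

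The Gal and Insm2 cells formed a pair of clusters that differed in these factors. In the larger cluster (537 and 295 cells) Isl1 was at 874 and 859.8 CPM, Pou4f2 at 248 and 251, Irx2 at 109.9 and 85.6, and Ebf1 at 522 and 551. In the smaller one (160 and 79 cells), whose leading genes include the mitosis genes Cdc20, Cenpa and Tpx2, Isl1 was at 140.2 and 223 CPM and Pou4f2 at 55.9 and 84.7. Irx2 there was at 6.76 and 11.4 CPM and Ebf1 at 75.6 and 97.2. Each of these 4 factors was thus higher in the cluster without leading cycle genes, in both libraries and with intervals that did not overlap.

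Single cells were compared after each was thinned to 5800 UMIs, so that a share of cells with a UMI does not follow depth. Shallower cells were left out, 546 pigmented and 387 albino. A gene is called detected here with at least 1 UMI. As a measure of free RNA, 0 of 16 pigmented immune cells had a UMI of any of the 7 genes, which allows a share of up to 20.6% for each gene (immune cells had a median of 7511 UMIs before thinning). Of 24 albino immune cells (median 9579 UMIs) 1 had a UMI of Ebf3 and none of the others, which allows up to 14.2% for each of those 6. Periocular mesenchyme, with more cells (214 and 124, medians of 13268 and 12843 UMIs), had Pou4f2 in 0.935% and 1.61% of cells and Isl1 in 1.87% and 7.26%.

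The share of cells with each factor was compared next. Neurogenic cells (medians of 10602 and 11294 UMIs) had Isl1 in 8.94% (6.19 to 12.4) and 10.0% (6.45 to 14.6) of cells and Pou4f2 in 3.07% (1.54 to 5.43) and 3.91% (1.81 to 7.30). The intervals of Pou4f2 overlap those of mesenchyme in both libraries, and those of Isl1 do so in the albino one (mesenchyme 3.37 to 13.3). No detection above that background in both libraries is therefore read for either in neurogenic cells. Against progenitors, the summed level of both was higher in neurogenic cells beyond counting error in both libraries. The ratios were 5.16 (3.18 to 8.36) and 2.61 (1.58 to 4.22) for Pou4f2 and 5.59 (4.25 to 7.36) and 3.17 (2.37 to 4.21) for Isl1. Irx2 had a UMI in 1 neurogenic cell of 358 and 1 of 230. In Gal and Insm2 cells Isl1 was detected in 67.2% (63.5 to 70.8) and 72.6% (67.6 to 77.2), Pou4f2 in 50.9% and 54.6%, Ebf1 in 56.1% and 60%, and Irx2 in 26.5% and 24.9%. Newborn ganglion cells had Isl1 in 99.1% and 99.7% of cells, Ebf1 in 99.4% and 100%, Pou4f2 in 76.5% (71.6 to 80.9) and 74.0% (69.3 to 78.3), and Irx2 in 67.4% and 64.0%. In maturing ganglion cells Isl1 and Ebf1 were still detected in nearly all cells (94.4% and 96.6%, and 100% and 100%). Isl1 was thus in more of the maturing cells than of the Gal and Insm2 cells, although its summed level did not differ between them beyond counting error. Pou4f2 was detected in 33.8% (27.3 to 40.9) and 36.8% (31.0 to 43.0) of them and Irx2 in 45.0% and 45.9%. Pou4f1 went the other way, from 24.7% (20.2 to 29.7) and 27.6% (23.2 to 32.3) of newborn to 39.9% (33.0 to 47.1) and 40.2% (34.3 to 46.4) of maturing cells. The same shares at full depth were higher, for example Pou4f2 in 92.5% and 90% of newborn and 71.5% and 69.6% of maturing cells.

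Isl1 was lower in maturing cells in UMIs per cell as well as in sum. The median thinned newborn cell had 8 and 7 UMIs of Isl1, with the 10th to 90th percentile at 4 to 13 and 3 to 12. The median maturing cell had 4 and 4, with 1 to 7 in both libraries. A cell with at least 10 UMIs of Isl1 was 34.4% and 28.6% of newborn but 2.53% and 3.38% of maturing cells. The lower sum thus came with a shift of the whole distribution rather than with a group of cells at 0. For Ebf1 the medians were 10 and 10 UMIs in newborn and 11 and 11 in maturing cells.

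The number of the 7 genes detected per cell was highest in newborn ganglion cells. No gene of the 7 was detected in 63.7% (58.5 to 68.7) and 62.2% (55.6 to 68.5) of neurogenic cells, and 1.96% and 0.870% of neurogenic cells had 3 or more. In Gal and Insm2 cells 46.3% (42.5 to 50.2) and 50.9% (45.5 to 56.2) had 3 or more. The share was 96.2% and 96.7% in newborn and 92.9% and 94.4% in maturing ganglion cells. The mean number was 0.458 and 0.452 in neurogenic, 2.26 and 2.35 in Gal and Insm2, 4.30 and 4.30 in newborn and 3.98 and 4.01 in maturing cells. No cell of these classes had all 7.

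Within the Gal and Insm2 cells the factors were found in the same cells. Isl1 was detected in 91.9% (88.5 to 94.6) and 95.3% (91.2 to 97.8) of cells with Pou4f2, but in 41.6% (36.2 to 47.2) and 45.3% (37.4 to 53.4) of those without it. Of cells with Isl1, 69.6% and 71.7% had Pou4f2, beside 12.6% and 9.38% of cells without Isl1. Pou4f2 without Isl1 was therefore rare, 27 of 656 and 9 of 350 cells, while Isl1 without Pou4f2 was found in 134 and 72. Irx2 was detected in 38.6% and 33.9% of cells with Isl1 and in 1.86% (4 of 215) and 1.04% (1 of 96) without it. Ebf1 was detected in 71.2% and 72.0% of cells with Isl1 and in 25.1% and 28.1% without it. All 10 pairs among Pou4f2, Isl1, Ebf1, Ebf3 and Irx2 had shares with and without the other gene whose intervals did not overlap in both libraries. Among all 21 pairs of the 7 genes there were the same number, 10, as no pair with Pou4f1 or Isl2 did so. In neurogenic, newborn and maturing cells there was no such pair of the 21. Photoreceptor precursors had 3 such pairs and amacrine and horizontal precursors 1, so such pairs were not confined to the Gal and Insm2 cells. Few newborn or maturing cells lacked Isl1 or Ebf1, so pairs with them could hardly be compared there. Each pair was counted in 1 direction. Pairs of other genes were not counted by this rule, so the 10 pairs are not read as particular to these factors.

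Detection of the single factors moved with how far a cell had come along the maturation genes. Among Gal and Insm2 cells under 500 CPM of that list, Isl1 was detected in 24.6% and 38.6%, Pou4f2 in 15.9% and 23.7%, Ebf1 in 25.4% and 28.9%, and Irx2 in 3.02% and 4.39%. In those at 4000 to 8000 CPM Isl1 was detected in 98.6% and 100%, Pou4f2 in 86.3% and 86.1%, Ebf1 in 94.5% and 100%, and Irx2 in 61.6% and 63.9%. Each of these shares was thus higher in the cells further along the list, in both libraries. Pou4f1 stayed at 12.3% and 8.33% in the highest of these bins. Within the single bin of 2000 to 4000 CPM (157 and 100 cells), added after the data were seen, only 1 of the 10 pairs still had intervals apart in both libraries. The bin holds fewer cells than the class, so its intervals are wider, and the loss of the other pairs is not read as a lack of co-detection. That pair was Pou4f2 by Isl1: 79.6% and 81.2% of cells with Isl1 had Pou4f2, beside 1 of 5 and 0 of 4 cells without Isl1. Read the other way, Isl1 was in 99.2% (95.5 to 99.98) and 100% (95.4 to 100) of cells with Pou4f2. Without Pou4f2 it was in 88.6% (73.3 to 96.8) and 81.8% (59.7 to 94.8). In this direction the intervals overlapped in the pigmented library and not in the albino one. At 1000 to 2000 CPM (111 and 58 cells) this pair was apart in both directions and both libraries. Pou4f2 was in 70.5% and 70.6% of cells with Isl1 and in 4 of 16 and 0 of 7 without it. Isl1 was in 94.4% and 100% of cells with Pou4f2 and in 70% and 68.2% without it. At 500 to 1000 and at 4000 to 8000 CPM the pair was not apart in either library.

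**Figure D4:**
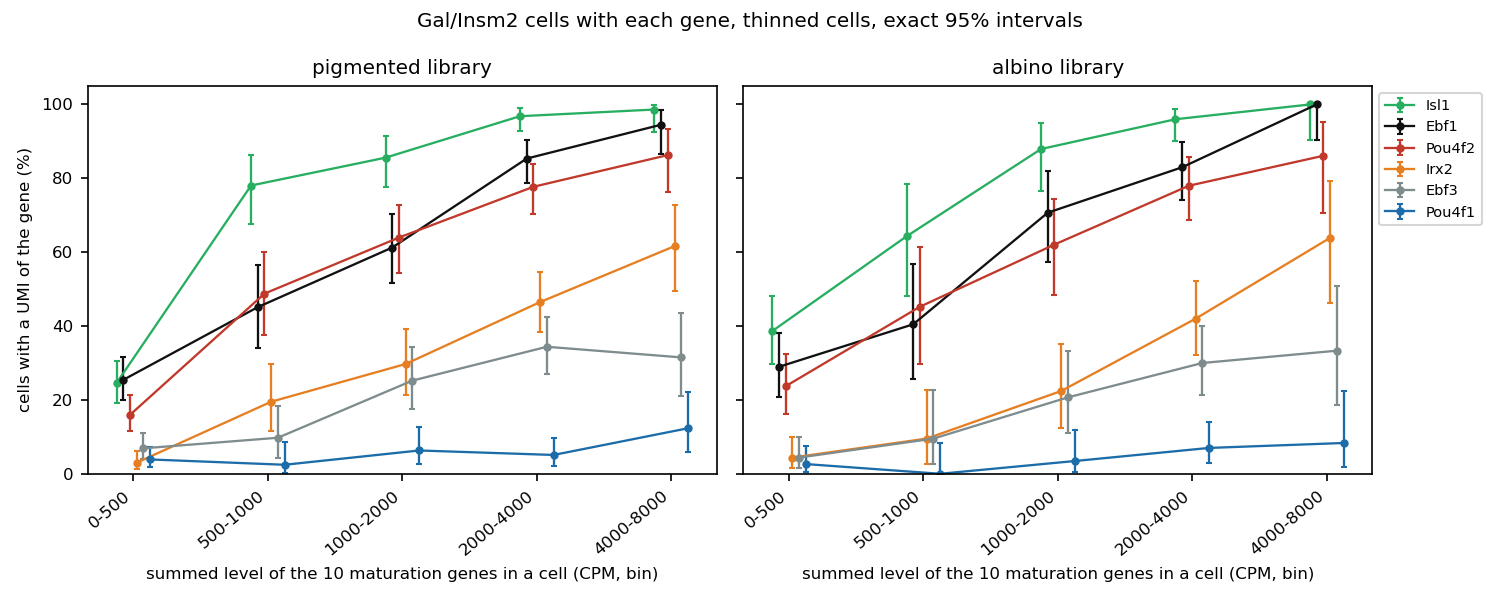
Share of thinned Gal and Insm2 cells with a UMI of each gene (percent, vertical axis) by the summed CPM of the 10 maturation genes (horizontal axis), for each library; bars are exact 95% intervals. Isl1 goes from 24.6% and 38.6% of cells in the lowest bin to 98.6% and 100% in the highest, and Pou4f1 stays at or below 12.3%.

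Within the Gal and Insm2 cells, cycle genes were less often found in cells with Pou4f2 or Isl1, the factors compared here. Mki67 or Top2a, genes of cycling cells, had a UMI in 12.3% (8.96 to 16.3) and 15.7% (10.9 to 21.7) of Gal and Insm2 cells with Pou4f2, and in 43.2% (37.7 to 48.8) and 43.4% (35.6 to 51.5) of those without it. For Isl1 the shares were 16.6% and 16.5% with it and 49.8% and 59.4% without it. The intervals did not overlap in either library. In the other classes compared, the intervals with and without Pou4f2 overlapped. Among newborn ganglion cells 4.62% and 3.45% of cells with Pou4f2 and 5% and 0.980% of those without it had a UMI of either cycle gene. In maturing cells the shares were 4.48% and 5.10% with Pou4f2 and 3.05% and 4.76% without it. Nearly all neurogenic cells had a cycle gene, 100% and 100% with Pou4f2 and 95.7% and 96.4% without it. The part of the maturation list or of the smaller, cycle-led cluster in this difference was not tested.

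**Figure D5:**
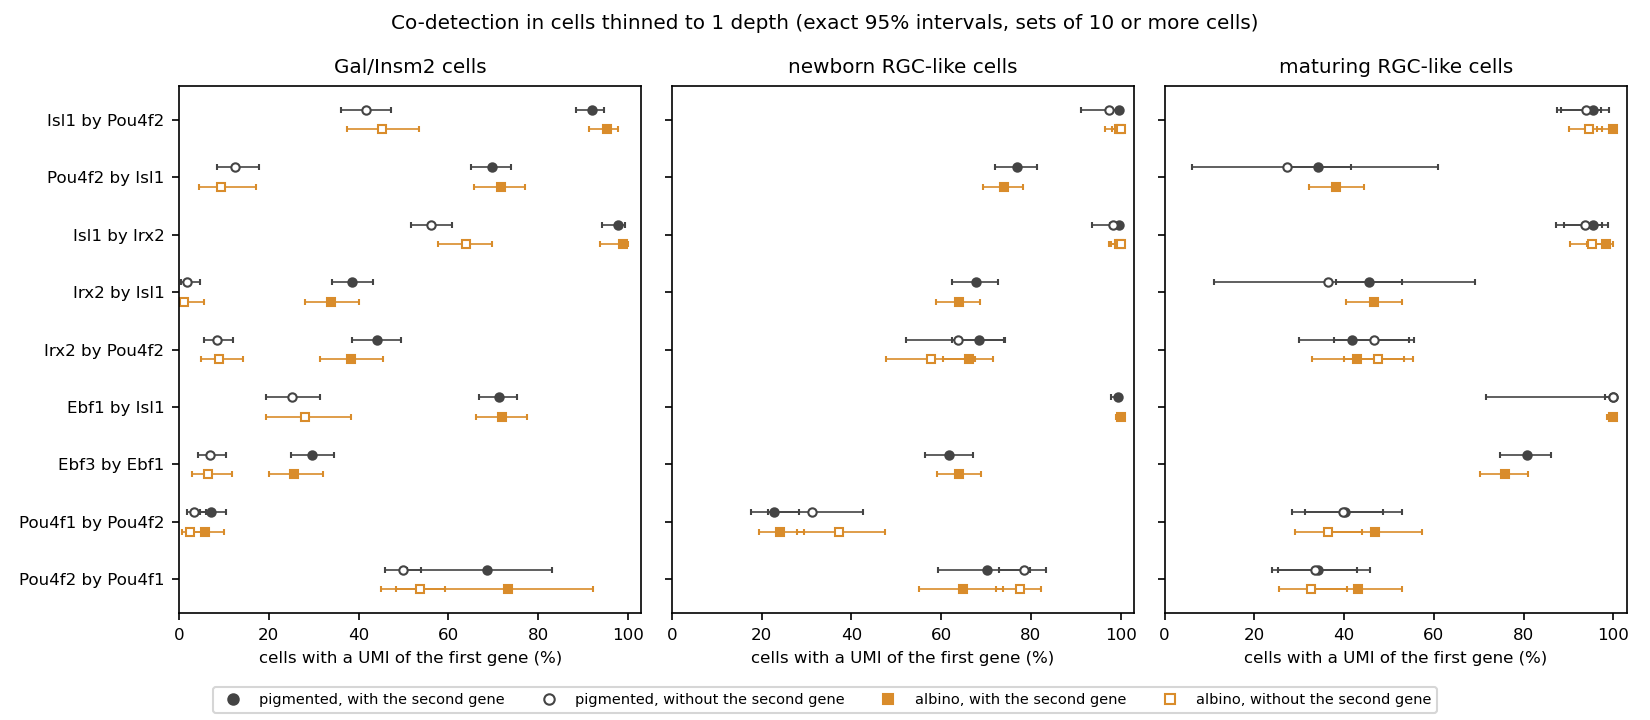
Share of thinned cells with a UMI of the first gene (percent, horizontal axis) among cells with (filled) and without (open) the second gene, for pairs of genes (rows) in single classes, with exact 95% intervals and sets of at least 10 cells. In Gal and Insm2 cells filled and open points stand apart in both libraries for the pairs without Pou4f1; Isl1, for example, is in 91.9% and 95.3% of cells with Pou4f2 and in 41.6% and 45.3% of those without it.

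The paralogues Pou4f2 and Pou4f1 overlapped in part. In newborn ganglion cells 59.1% and 56.1% had Pou4f2 alone, 7.35% and 9.69% Pou4f1 alone, 17.4% and 17.9% both, and 16.2% and 16.3% neither. In maturing ganglion cells Pou4f2 alone was found in 20.2% and 19.5%, Pou4f1 alone in 26.3% and 22.9%, both in 13.6% and 17.3%, and neither in 39.9% and 40.2%. Detection of either did not differ with the other beyond counting error in these classes: Pou4f1 was in 40.3% and 46.9% of maturing cells with Pou4f2 and in 39.7% and 36.3% of those without it. With medians of 0 or 1 UMI per thinned cell, a cell without a UMI cannot be read as a cell without the RNA. The Isl paralogues could be compared only in maturing cells, where all 8 pigmented and all 15 albino cells with Isl2 also had Isl1. Of all thinned maturing cells, 187 of 198 and 257 of 266 had Isl1, so these counts lie near the share of the class.

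Pou4f2 in newborn cells also went with Atoh7. It was detected in 77.5% (72.6 to 81.8) and 75.4% (70.7 to 79.7) of newborn cells with Atoh7. Of the few without Atoh7, 2 of 7 and 8 of 18 had it, and these intervals lay below the others in both libraries. Both genes were also lower in cells further along the maturation list. From 4000 to 8000 CPM of it to above 16000, Pou4f2 went from 388 and 349 to 85.4 and 93.1 CPM. Atoh7 went from 2916 and 2688 to 135 and 154 CPM. Newborn cells stood in both of these bins, and the part of the list in this co-detection was not tested. Atoh7 itself was at 8291 and 8163 CPM in neurogenic, 6222 and 6179 in Gal and Insm2, 1860 and 1413 in newborn and 89.8 and 101 in maturing cells.

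Outside the classes compared as steps toward ganglion cells most of these genes were low. The Gal and Insm2, newborn and maturing cells together held 94.1% and 92.0% of all Pou4f2 UMIs of a library, 95.8% and 93.8% of Isl1, 93.1% and 91.1% of Irx2 and 86.2% and 90.8% of Pou4f1. For Ebf1 it was 86.0% and 90.2% and for Ebf3 84.1% and 90.2%. Isl2 was the exception, with 40.2% and 73.2%, as photoreceptor precursors held 37.8% and 16.5% of its UMIs. Retinal progenitors had 4.66 and 9.18 CPM of Isl1 and 13.1 and 15.6 CPM of Ebf1.

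Photoreceptor precursors held Ebf1 at 192.5 and 223 CPM (42.9% and 45.0% of thinned cells). Of their clusters, the one led by Gngt2, Pdc and Crx, genes of photoreceptors, had 438 (395 to 485) and 496.5 (433 to 567) CPM, and the one led by Neurod4 and Otx2 had 126 (114 to 139) and 156 (139 to 176). Ebf1 was thus higher in the cluster with photoreceptor genes in both libraries. Isl1 was at 36.6 and 88.9 CPM in photoreceptor precursors and came mostly from 15 and 17 cells with at least 3 UMIs, which held 127 of 147 and 185 of 200 UMIs. These cells had medians of 16349 and 21398 UMIs, against 8186 and 8347 in the cells without Isl1. They also had 5455 and 5729 CPM of the summed ganglion cell markers, against 2832 and 2618, and Pou4f2 at 151 and 130 CPM. Depth and ganglion cell markers thus moved with Isl1 in this class, and their part in its level was not tested.

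Amacrine and horizontal precursors had Isl1 UMIs in few cells: 4 pigmented cells held 65 of 67 and 4 albino cells 45 of 46. These 8 cells had Pou4f2 too, at 371 and 276 CPM, and medians of 16269 and 15399 UMIs against 7327 and 8022 in cells without Isl1. Ebf1 was spread more widely there, in 50.9% (41.4 to 60.3) and 44.6% (32.3 to 57.5) of thinned cells, at 169.5 and 183 CPM. Between these precursors and photoreceptor precursors none of the 7 genes was higher in the amacrine and horizontal class beyond counting error in both libraries, and 2 were lower. These were Isl2, with 2 and 0 UMIs in the amacrine and horizontal class, and Ebf3, at 5.71 and 3.18 CPM against 18.2 and 20.9.

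Cells from outside the neural retina carried the Ebf genes and Irx2. Mesenchyme had Ebf1 at 303 and 229 CPM, Ebf3 at 57.3 and 38.2 and Irx2 at 21.6 and 27.6, with Pou4f2 at only 3.51 and 3.18. Ebf3 in mesenchyme did not differ beyond counting error from Ebf3 in the Gal and Insm2 cells in either library. Surface ectoderm cells (24 and 80) had Isl1 at 126 and 106 CPM and Ebf1 at 278 and 174. In these cells Atoh7 stood at 1287 and 1059 CPM and the summed ganglion cell markers at 4046 and 6376. RNA of retinal neurons was thus present beside the factors there, and its part in their level was not tested.

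Between the libraries the 7 genes were compared first in the Gal and Insm2 cells and both ganglion cell classes. No gene in Gal and Insm2, newborn or maturing cells was at least 2-fold apart with at least 20 UMIs over both libraries, beside 1.62%, 1.54% and 1.54% of all genes in these classes. Isl2 in Gal and Insm2 cells had a ratio of 2.40 (0.656 to 9.60), from 7 albino and 5 pigmented UMIs, under that minimum. Of the 21 ratios, 8 had a counting interval without 1, beside 9.33%, 10.8% and 7.97% of all genes in the 3 classes. With 1 library each this is no test of pigmentation, and such an interval is passed more easily by genes with many UMIs. In newborn ganglion cells the albino to pigmented ratio was 0.875 (0.812 to 0.943) for Pou4f2, 0.931 (0.900 to 0.962) for Isl1, 0.902 (0.830 to 0.980) for Irx2 and 1.099 (1.006 to 1.202) for Ebf3. With called doublets kept, Isl1 and Irx2 turned to 1.042 and 1.012. In Gal and Insm2 cells Irx2 was at 0.812 (0.702 to 0.936) and Ebf1 at 1.09 (1.02 to 1.15). In maturing cells Irx2 was at 0.879 (0.774 to 0.998) and Isl2 at 1.76 (1.04 to 3.07), from 52 albino and 21 pigmented UMIs. Among cells with Xist and no Y-linked RNA the Isl2 ratio was 6.59 (1.73 to 55.9), which is over 1.5 times the value in all cells. Atoh7, for comparison, was at 0.760 (0.737 to 0.783) in newborn cells.

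Outside these classes some ratios lay farther from 1. In retinal progenitors the albino to pigmented ratio was 2.27 (1.46 to 3.54) for Pou4f2, from 51 and 38 UMIs, 1.97 (1.51 to 2.57) for Isl1, and 3.59 (1.47 to 9.61) for Irx2, from 17 and 8 UMIs. In photoreceptor precursors it was 2.43 (1.96 to 3.03) for Isl1, 1.98 (1.31 to 3.00) for Pou4f2 and 1.16 (1.03 to 1.30) for Ebf1. Mesenchyme had ratios of 2.36 (1.43 to 3.93) for Isl1, 0.754 (0.673 to 0.845) for Ebf1 and 0.667 (0.502 to 0.878) for Ebf3. Ebf1 was at 0.624 (0.507 to 0.775) in surface ectoderm and 0.617 (0.372 to 0.985) in ciliary margin cells. Summed Isl1 was thus higher in the albino library in progenitors, photoreceptor precursors and mesenchyme. Each of these held it at a small part of its level in newborn ganglion cells, in each library. Few cells with at least 3 UMIs held a large part of it: 50 of 108 and 77 of 126 UMIs in progenitors (6 and 5 cells). In mesenchyme 3 and 4 cells held 21 of 30 and 29 of 39. Summed ganglion cell markers were at 1739 and 1413 CPM in these progenitors, against 121 and 132 in those without Isl1. In mesenchyme they were at 520 and 2999 CPM, against 491 and 390. The part of such cells in these ratios was not tested.

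Other genes of the ganglion cell network were taken from a list of 30, also chosen with earlier results of these data known. From newborn to maturing cells 25 of them had at least 20 UMIs in each library, and 7 were at least 2-fold higher and 3 lower in both, against the 3.96% and 2.04% of all genes. Their median log2 ratio was 0.35 and 0.00, and that of all genes -0.04 and -0.05. The lower ones were Atoh7, Dlx1 and Dlx2. Dlx2, a homeodomain factor of precursors, was at 217 and 216 CPM in Gal and Insm2 cells, 38.3 and 33.1 in newborn and 7.24 and 10.7 in maturing cells. Onecut1 was among the higher ones, along with 6 genes that were low or at 0 in newborn cells.

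Relatives of the 7 genes were among these. Pou4f3, the remaining Pou4f paralogue, had 0 UMIs in newborn cells of both libraries (which allows up to 0.656 and 0.542 CPM at 3 UMIs) and 19.7 and 14.2 CPM in maturing cells. Irx4, which lies in the same Iroquois gene cluster as Irx2, likewise had 0 UMIs in newborn and 12.5 and 12.5 CPM in maturing cells. Irx3 was at 12.7 and 23.3 CPM in newborn and 228 and 222 in maturing cells, and Irx5 at 26.0 and 48.1 and then 251 and 239. The Iroquois genes Irx3, Irx4 and Irx5 were thus higher in maturing cells while Irx2 was lower. Myt1l, a neuronal zinc finger factor, was at 8.31 and 9.76 CPM and then 126 and 99.99, and Onecut3, a homeodomain factor, at 4.81 and 8.86 and then 47.2 and 41.9. Of 15 products of ganglion cell differentiation such as Gap43 and Nrn1, 14 had enough UMIs, and 8 were at least 2-fold higher and none lower. Their median log2 ratio was 1.31 and 1.06, but many of them helped to name or order the classes, so this count is no independent result.

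The genes most like each factor across the 19 clusters with at least 20 cells in each library were named by Pearson's r of log2(CPM + 1), taking the lower of the libraries. The clusters of a library share its preparation, and r is given as a description. For Pou4f2 they were Barhl2 (0.925), a homeodomain factor, Igfbpl1 (0.896) and Elavl4 (0.894), a neuronal RNA-binding protein. Isl1 had Igfbpl1 (0.919), Barhl2 (0.919) and Mllt11 (0.910). Irx2 had Elavl4 (0.913) and the neuronal cytoskeleton genes Nefm (0.903) and Stmn2 (0.900). Pou4f1 was most like Cntn2 (0.910), an axonal adhesion molecule, Trappc6b (0.902) and Fam57b (0.899). Ebf1 was most like Podxl2 (0.928), Stmn2 (0.917) and Tubb2b (0.911), and Ebf3 like Elavl4 (0.843), Insc (0.843) and Nefl (0.836). Isl2 had Shisal1 (0.864), Cntnap5a (0.859) and Uncx (0.855). Pou4f2 and Isl1 were more alike than either was to any of these, with 0.964, whereas Pou4f1 and Pou4f2 had 0.773 and Isl1 and Isl2 0.518. Of the genes named here, Elavl4, Nefm, Nefl, Stmn2 and Cntn2 helped to name or order the ganglion cell classes. Their likeness is therefore no independent result.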

How the data were processed

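Single-cell 3' libraries were read with Cell Ranger 2.1.1 on mm10 per the submitters' processing notes, whereas the matrix headers name version 5.0.1. The deposited values are raw UMI counts per gene and cell, not normalized. Barcodes under 500 genes or over 10% of mitochondrial UMIs were dropped. Scrublet, in scanpy 1.11.5, then called 172 pigmented and 39 albino doublets, which were left out. The libraries held 69965728 and 46271969 UMIs. Cells of both libraries were clustered together in Python 3.11.15 (2000 variable genes, 30 components, 15 neighbours, Leiden resolution 1.0), and clusters were named by listed markers where the best list led the next by 0.3 in mean log2 fold, except that clusters with Gal and Insm2 among their 10 leading genes were kept as a group of their own. Counts were summed per class and library. Exact Poisson intervals were given to levels, conditional exact intervals to ratios and Clopper-Pearson intervals to shares, all at 95%. PCR duplicates are removed by UMIs, and intervals cover counting error only. For 2-fold counts over all genes 1 UMI was added to each sum. The scripts were tested on simulated data. All 7 genes are named, with at most 8 network genes past 2-fold (those with the largest change) and the 3 genes most like each factor. Members and lists were chosen with earlier results of these data known.

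Alternatives covered the cell filters, doublets, resolution, cell weighting, sex, thinning depth and the detection and background minimum. Of 32285 gene IDs 32158 were found in GENCODE vM21. Clusters led by lens genes or of low depth were not described.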

Additional observations from a re-analysis of the deposited data

Results flagged for a closer look

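Isl2 pointed in opposite directions in the libraries from neurogenic to Gal and Insm2 cells. Its ratio was 0.305 (0.0817 to 0.979) in the pigmented library, from 10 and 5 UMIs, and 2.48 (0.473 to 24.5) in the albino library, from 2 and 7 UMIs. The difference between the libraries was not tested, as each group is 1 library.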

How the results depend on the processing

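Of 54 summary results under alternatives, 47 kept their value within 1.5 times. The co-detected pairs in Gal and Insm2 cells, each taken in 1 direction, were 10 of 10. They were 6 when detection needed at least 2 UMIs and 1 within 2000 to 4000 CPM of the maturation list, where fewer cells make the intervals wider. The genes at least 2-fold apart from newborn to maturing cells, 2, were 1 with a background of at least 100 UMIs and 1 in cells with Xist and no Y-linked UMI. Gene and class pairs at least 2-fold apart between the libraries, 0, were 1 in cells with Xist and no Y-linked UMI (Isl2 in maturing cells) and 1 with mitochondrial UMIs at most 5% (Isl2 in newborn cells). The library ratios with a counting interval without 1, 8, were 5 without the 10% of cells with the most UMIs, which leaves fewer UMIs. Both results that reversed did so with doublets kept: the albino to pigmented ratio in newborn cells went from 0.902 to 1.012 for Irx2 and from 0.931 to 1.042 for Isl1, and the cause was not tested.

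Of the single values, 716 moved by less than their interval, 133 by more and 2 reversed. None of the ratios of maturing over newborn cells reversed under 9 alternatives, and Pou4f2 stayed between 0.247 and 0.340 in the pigmented and 0.310 and 0.361 in the albino library. Equal weights for cells give no counting interval. The alternatives on cells with the most UMIs, shared barcodes, the larger Gal and Insm2 cluster and the 2000 to 4000 CPM bin were chosen after seeing the data. No paired analysis was possible because each group is 1 library. Depth limits Isl2, with under 100 UMIs per library, and single-cell detection of Pou4f1, Pou4f2 and Irx2.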
